A study of Mus musculus with 21 samples.

Results

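Gene expression in cultured cells of the IRE1α knockout line KO3 was compared with that in cells of the other knockout lines, KO1 and KO2. IRE1α is the product of Ern1. All 3 lines were made from Myc-CaP, a mouse prostate cancer cell line driven by a Myc transgene under a probasin promoter, which androgen turns on, by CRISPR-Cas9 with 1 guide RNA, and the wild-type (WT) cells were Myc-CaP cells with intact IRE1α. The comparison held 6 of the 21 libraries of the series: 2 of KO3 cells, against 2 of KO1 cells and 2 of KO2 cells. The 2 libraries of WT cells served only to show on which side of a difference the unedited cells lay. Libraries of tumours grown in FVB mice from the same lines, 3 of KO3, 3 of KO1, 3 of KO2 and 4 of WT, were read as a separate set of samples. The cells of every group were grown in the same medium with serum and no treatment is named in the labels. KO3 is 1 line, the labels do not say whether a line is 1 clone or a pool, and nothing used here says that the libraries of a line came from separate cultures. A p-value therefore measures the spread between these libraries, and a difference between KO3 and the other lines is a difference between lines.

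IRE1α is a sensor in the membrane of the endoplasmic reticulum (ER). When unfolded proteins build up there, its RNase removes a short intron from Xbp1 mRNA, and the spliced form encodes XBP1s, a transcription factor for genes of protein folding, translocation and secretion. The ER sensor ATF6 acts on an overlapping set of chaperone genes. Another, PERK, is one of several kinases that start the integrated stress response, in which translation is slowed while the transcription factor ATF4 is made and turns on genes of amino acid uptake, amino acid synthesis and tRNA charging. Prostate epithelium is made of luminal cells, which carry simple keratins such as keratin 8 and keratin 18 and respond to androgen, and of basal cells, which carry keratins such as keratin 5 and keratin 15 and rest on a basement membrane.

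The guide is shown because all 3 lines were made with it, so the lines do not differ in the site that was targeted. It lies in coding sequence of exon 2 of Ern1, on chromosome 11 from 106458942 to 106458961 in GRCm38, and reads in the sense of the transcript, with the bases next to it that serve as the PAM in capitals.
Ern1 guide and PAM: gcttgcatgctgttagcaagAGG
Levels are given as CPM, counts scaled to the size of the library, and fold changes as KO3 over KO1 and KO2, so a positive one means higher in KO3. Ern1 mRNA had 178 and 188 CPM in KO3 cells, against 176 and 194 CPM in KO1 cells, 203 and 202 CPM in KO2 cells and 121 and 138 CPM in WT cells. KO3 lay within the range of KO1 and KO2, and the log2 fold change of -0.08 ± 0.08 (SE) did not pass (adjusted p = 0.53, edgeR). Counts over a whole gene are blind to a few lost or added bases, so they check nothing about the edit in any line.

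The cell libraries held 18105510 to 25068239 counts, with 22234227 and 25068239 in KO3. RNA of the 37 genes of the mitochondrial genome took 2.63% to 2.80% of counts in KO3. The share was 2.01% to 2.67% in KO1 and KO2 and 1.83% to 2.21% in WT. Of the markers of luminal prostate cells, Hoxb13 lay between 26.5 and 36.1 CPM in the 8 cell libraries. The 2 KO3 libraries were lowest, at 30.9 and 26.5 CPM. KO1 and KO2 cells had 32.6 to 36.0 CPM, and WT cells 35.2 and 36.1 CPM. Epcam was at 0 in all 8, and Cdh1, which encodes E-cadherin, lay between 0.0392 and 0.252 CPM, so these epithelial markers were absent or nearly so in every line. Summed markers of leukocytes did not exceed 0.151 CPM and those of endothelium 0.241 CPM in any cell library. Between libraries of 1 line Pearson's r of log2 CPM over 9876 genes was 0.991 to 0.996, and between KO1 and KO2 it was 0.986 to 0.992. KO3 correlated with KO1 and KO2 at 0.971 to 0.980 and with WT at 0.975 to 0.979, while KO1 and KO2 correlated with WT at 0.961 to 0.966. These correlations run across genes, which are not independent, and describe the libraries only.

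In KO3 cells 2629 of 12082 genes tested, 21.8%, differed from KO1 and KO2 cells at an adjusted p under 0.05 in the quasi-likelihood test of edgeR. Of these 1456 were higher in KO3 cells, 12.1% of the genes tested, and 1173 were lower, 9.71%. A change of 2-fold or more was seen in 424, of which 246 were higher and 178 lower. The 2 KO3 libraries lay outside the range of the 4 others in 46.1% of all genes tested. WT lay nearer to KO3 than to the mean of KO1 and KO2 in 1835 of the 2629 genes, 69.8%, against 58.9% of all genes tested. Among the 424 genes with changes of 2-fold or more the share was 59.2%. The count fell to 1006 without KO3 replicate 1 and to 911 without KO3 replicate 2, when 1 library stood for the line, and to 510 when the libraries were summed so that each line counted once.

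**Figure D1:**
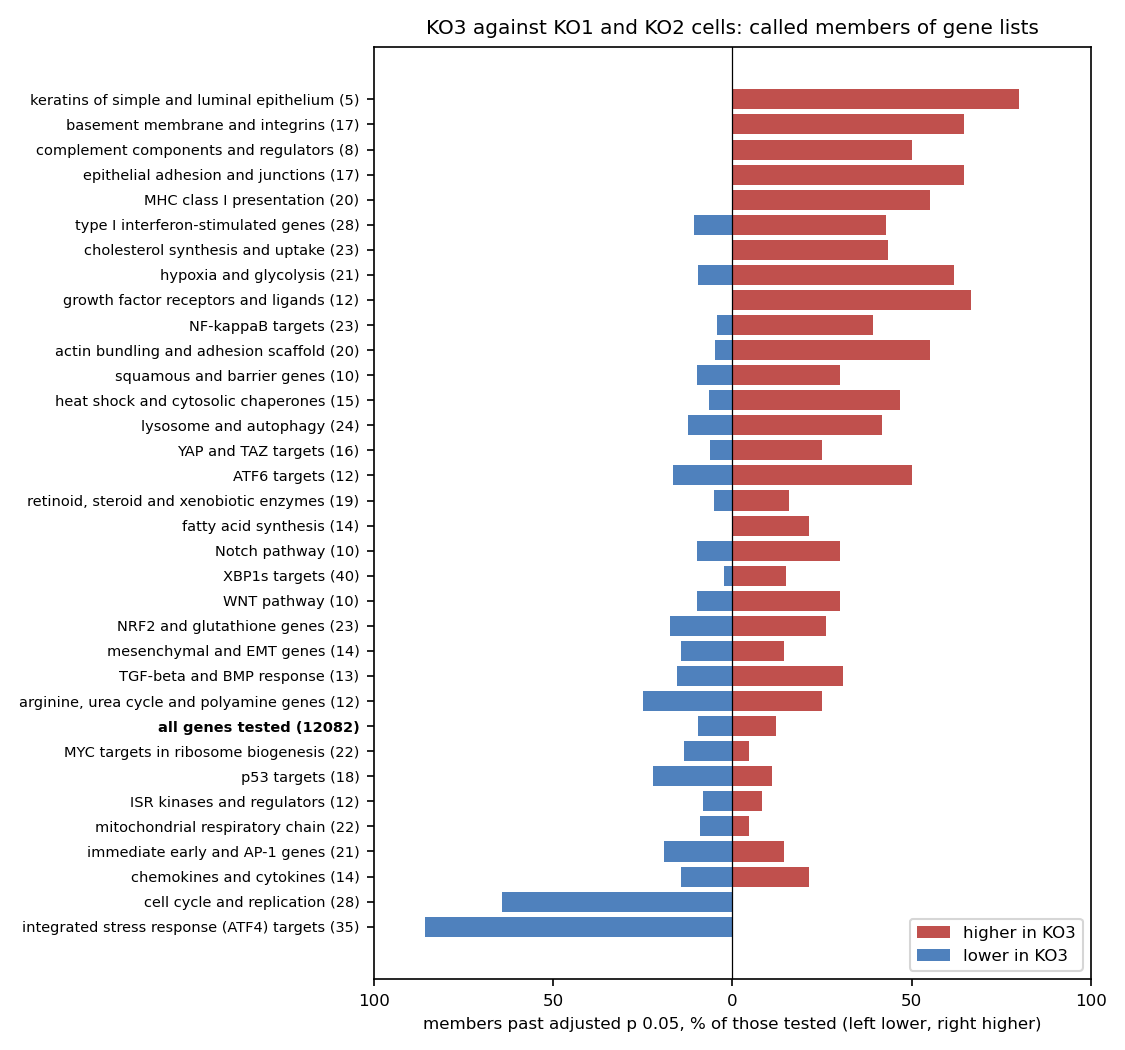
Share of the tested members of each gene list shown (number tested in brackets) that were higher (right, red) or lower (left, blue) in KO3 cells than in KO1 and KO2 cells at an adjusted p under 0.05, with all genes tested in bold and lists ordered by their median log2 fold change. Integrated stress response genes reach furthest to the left, at 30 lower of 35, and cell cycle genes come next, at 18 lower of 28.

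Genes of the integrated stress response were lower in KO3 cells than in KO1 and KO2 cells, and stood close to WT. Of 35 tested ATF4 targets 30 fell and none rose, with a median log2 fold change of -0.85, against a median of -0.01 over all genes tested. Trib3, a pseudokinase that damps the response, had 23.8 and 29.6 CPM in KO3 cells, against 122 and 121 CPM in KO1 cells, 111 and 125 CPM in KO2 cells and 28.4 and 25.4 CPM in WT cells. Both KO3 libraries lay with WT and far below the 4 libraries of KO1 and KO2, with a log2 fold change of -2.15 ± 0.11 (SE) (adjusted p = 2.95e-06). Ddit3, which encodes CHOP, a transcription factor of prolonged ER stress, had 4.98 and 4.24 CPM in KO3 cells, against 23.6 and 22.6 CPM in KO1 cells, 20.5 and 20.5 CPM in KO2 cells and 6.47 and 5.27 CPM in WT cells. The groups did not overlap, and the log2 fold change was -2.24 ± 0.12 (SE) (adjusted p = 7.03e-06). Slc7a11, the cystine importer, had 85.2 and 93.7 CPM in KO3 cells, against 279.7 and 280.2 CPM in KO1 cells, 288 and 268 CPM in KO2 cells and 159 and 157 CPM in WT cells. Here KO3 was below WT as well as below KO1 and KO2, at a log2 fold change of -1.63 ± 0.08 (SE) against KO1 and KO2 (adjusted p = 2.27e-06).

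Atf4 mRNA itself had 215 and 221 CPM in KO3 cells, against 486 and 442 CPM in KO1 cells, 482 and 561 CPM in KO2 cells and 296 and 289 CPM in WT cells, a log2 fold change of -1.17 ± 0.10 (SE) (adjusted p = 7.73e-05). All KO3 values were below those of WT, and all values of KO1 and KO2 above them. Asns, which makes asparagine, had 214 and 232 CPM in KO3 cells, against 434 and 424 CPM in KO1 cells, 447 and 444 CPM in KO2 cells and 242 and 231 CPM in WT cells, and fell by 0.96 on the log2 scale (adjusted p = 3.58e-05). Chac1, which degrades glutathione, had 22.8 and 27.0 CPM in KO3 cells, against 65.3 and 62.3 CPM in KO1 cells, 84.7 and 101 CPM in KO2 cells and 26.9 and 27.1 CPM in WT cells, and fell by 1.64 on the log2 scale (adjusted p = 0.00035). For both genes the KO3 libraries lay beside those of WT. Nupr1, a small stress-induced chromatin protein, fell by 1.81 on the log2 scale, and Sesn2, which restrains mTORC1, by 1.57. In log2 fold changes, the drop ran through amino acid transporters (Slc3a2 at -0.998, Slc7a5 at -0.85, Slc6a9 at -1.22), serine and one-carbon enzymes (Psph at -0.87, Shmt2 at -0.73, Mthfd2 at -0.84, Phgdh at -0.50) and tRNA synthetases (Wars at -0.99, Aars at -0.87, Cars at -0.61, Gars at -0.59, Nars at -0.58). Cth, which makes cysteine, stood at a log2 fold change of -1.31. The 5 tested members that did not pass were Cebpg, Soat2, Psat1, Cebpb and Slc7a3, with log2 fold changes of -0.23, -0.80, -0.19, -1.29 and -0.38. Cebpb reached 40.8 CPM in KO2 replicate 2, against 10.9 to 12.8 CPM in the other KO1 and KO2 libraries. Vldlr, Gdf15 and Stc2 were not tested.

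Relative to WT the median of the ATF4 list was -0.14 in KO3 cells, 0.61 in KO1 cells and 0.69 in KO2 cells, in differences of log2(CPM + 0.5) that share the WT libraries. Of 12 kinases and regulators upstream, Atf4 was lower and Eif2ak2, which encodes the kinase PKR, was higher at a log2 fold change of 0.49. The other 10 did not pass, among them Eif2ak3 (PERK) at a log2 fold change of 0.23, Eif2ak4 (GCN2) at a log2 fold change of 0.09 and Eif2ak1 (HRI) at a log2 fold change of -0.06. The number of ATF4 targets that were lower ran from 25 to 33 over the alternatives that kept the libraries apart, and was 22 with libraries summed per line. Of 12 tested genes of arginine, the urea cycle and polyamines 3 were higher and 3 lower, so that list was divided. Among the lower members Aldh18a1, an enzyme of proline synthesis, had 87.4 and 86.7 CPM in KO3 cells, against 169 and 161 CPM in KO1 cells, 167 and 180.4 CPM in KO2 cells and 121 and 118 CPM in WT cells, at a log2 fold change of -0.95 ± 0.07 (SE) (adjusted p = 3.87e-05). Pycr1, the last enzyme of that route, stood at a log2 fold change of -0.88 ± 0.11 (SE) (adjusted p = 0.000432). For Aldh18a1 the KO3 libraries were below WT, and those of KO1 and KO2 above it.

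**Figure D2:**
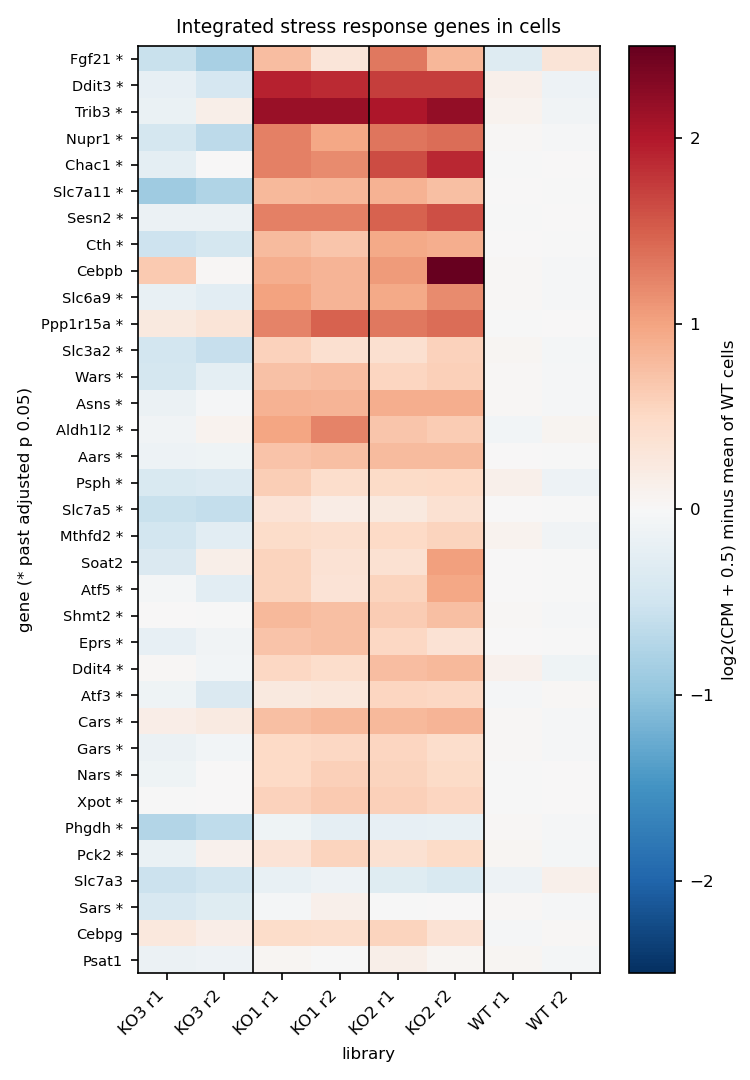
Level of each tested ATF4 target (rows) in each library of cultured cells (columns), as log2(CPM + 0.5) minus the mean of the 2 WT libraries, with red above and blue below WT and an asterisk at genes past an adjusted p of 0.05; values past the ends of the colour scale have the end colour. KO3 columns are pale or blue and KO1 and KO2 columns mostly red, with list medians of -0.14 in KO3, 0.61 in KO1 and 0.69 in KO2.

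The promoters of 4 of these genes and of 1 cell cycle gene are shown. They were taken from genes lower in KO3 cells than in KO1 and KO2 cells whose promoter holds the letters marked. The presence of these letters in the promoters shown was thus fixed by the choice. Each runs from 250 bases before to 50 bases after the start of the gene in RefSeq (GRCm38.p6), in the sense of the gene. Capitals mark, in the first 4, TGATGNAA on either strand, the letters of the C/EBP-ATF element that ATF4 binds with a C/EBP partner. In Cdc20 they mark TTTGAA on either strand, the cell cycle gene homology region (CHR) of genes expressed in G2 and M phase. The 2 motifs share no position in these sequences.
Slc7a11, chr3:50443564-50443863, minus strand: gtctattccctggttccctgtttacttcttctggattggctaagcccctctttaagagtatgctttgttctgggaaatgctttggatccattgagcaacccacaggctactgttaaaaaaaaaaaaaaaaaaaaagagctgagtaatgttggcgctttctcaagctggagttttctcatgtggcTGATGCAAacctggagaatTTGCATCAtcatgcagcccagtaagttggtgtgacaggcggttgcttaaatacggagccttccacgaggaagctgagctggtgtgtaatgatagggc
Trib3, chr2:152344011-152344310, minus strand: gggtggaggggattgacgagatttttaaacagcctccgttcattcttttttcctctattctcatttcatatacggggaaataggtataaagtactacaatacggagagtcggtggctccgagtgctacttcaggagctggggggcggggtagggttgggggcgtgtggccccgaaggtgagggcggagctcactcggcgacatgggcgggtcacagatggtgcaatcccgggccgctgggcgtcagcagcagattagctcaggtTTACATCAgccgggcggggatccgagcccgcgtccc
Nupr1, chr7:126625421-126625720, minus strand: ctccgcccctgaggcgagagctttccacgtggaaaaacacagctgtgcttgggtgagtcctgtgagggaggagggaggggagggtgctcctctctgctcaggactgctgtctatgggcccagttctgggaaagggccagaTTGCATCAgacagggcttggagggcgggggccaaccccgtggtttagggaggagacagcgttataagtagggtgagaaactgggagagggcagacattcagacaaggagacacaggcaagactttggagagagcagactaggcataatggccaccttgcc
Asns, chr6:7693160-7693459, minus strand: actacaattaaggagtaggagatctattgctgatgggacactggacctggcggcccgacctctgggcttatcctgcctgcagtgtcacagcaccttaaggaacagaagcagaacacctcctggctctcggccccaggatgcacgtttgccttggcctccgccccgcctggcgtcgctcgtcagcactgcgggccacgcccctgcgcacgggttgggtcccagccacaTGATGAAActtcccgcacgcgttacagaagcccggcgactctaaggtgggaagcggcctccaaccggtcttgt
Cdc20, chr4:118437294-118437593, minus strand: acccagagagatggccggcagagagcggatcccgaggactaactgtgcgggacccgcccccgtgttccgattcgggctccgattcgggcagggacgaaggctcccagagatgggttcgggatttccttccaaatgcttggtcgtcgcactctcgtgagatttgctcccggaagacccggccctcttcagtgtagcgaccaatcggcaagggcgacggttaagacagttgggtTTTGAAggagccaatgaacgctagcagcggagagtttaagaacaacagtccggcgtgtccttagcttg
Slc7a11 holds the element 2 times, once in each orientation. A promoter was found for 24 of the 30 ATF4 targets that fell, and 10 of them, 41.7%, hold TGATGNAA. The element stood in 4.51% of the 27025 genes with a promoter and in 2.58% of the 8735 of them tested in cells. Of the 27 tested ATF4 targets with a promoter 37.0% hold it. These genes were put on the list as known ATF4 targets, so the share describes the list and not the response of KO3. Of 23 tested cell cycle genes with a promoter 9 hold TTTGAA, 39.1%. The share was 20.2% of all genes with a promoter and 13.9% of those tested in cells. A match is a run of letters and not evidence of binding in these cells.

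Cell cycle genes were also lower in KO3 cells, again on the side of WT. Of 28 tested genes 18 fell and none rose, with a median log2 fold change of -0.50. Cdc20, which activates the anaphase-promoting complex, had 45.1 and 41.1 CPM in KO3 cells, against 83.2 and 75.9 CPM in KO1 cells, 69.2 and 73.6 CPM in KO2 cells and 56.1 and 53.7 CPM in WT cells. All KO3 values lay below those of WT and of both other lines, at a log2 fold change of -0.80 ± 0.09 (SE) (adjusted p = 0.000268). Bub1b, a kinase-like protein of the spindle checkpoint, had 52.4 and 48.3 CPM in KO3 cells, against 88.2 and 93.0 CPM in KO1 cells, 79.8 and 85.4 CPM in KO2 cells and 49.6 and 47.7 CPM in WT cells. KO3 and WT overlapped there, and KO3 differed from KO1 and KO2 by a log2 fold change of -0.78 ± 0.08 (SE) (adjusted p = 0.000188). Ccnb1, the mitotic cyclin B1, fell by 0.77 on the log2 scale (adjusted p = 0.000468). The mitotic kinases Plk1, Aurka and Aurkb, and Foxm1, a transcription factor of mitotic genes, stood at log2 fold changes of -0.82, -0.72, -0.78 and -0.78. Replication genes were divided: Cdt1, Mcm5, Mcm4 and Mcm7 fell, at log2 fold changes of -0.80, -0.61, -0.40 and -0.38, while Mcm2, Mcm3, Mcm6, Pcna and Rrm2 did not pass, at log2 fold changes of -0.25, -0.31, -0.06, -0.11 and -0.30. The G1 to S cyclins Ccne1 and Ccne2 did not pass either. Relative to WT the medians of the list were 0.12 in KO3 cells, 0.68 in KO1 cells and 0.45 in KO2 cells. The count of lower members was 10 without KO3 replicate 1, 9 without KO3 replicate 2 and 6 with libraries summed per line.

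Cdkn1a, which encodes p21, an inhibitor of cyclin-dependent kinases, was also lower in KO3 cells. It had 18.7 and 18.2 CPM in KO3 cells, against 32.6 and 29.3 CPM in KO1 cells, 29.8 and 33.4 CPM in KO2 cells and 24.4 and 22.5 CPM in WT cells, a log2 fold change of -0.75 ± 0.09 (SE) (adjusted p = 0.000472). Eda2r, a death receptor and p53 target, had 4.30 and 5.22 CPM in KO3 cells, against 19.1 and 21.2 CPM in KO1 cells, 18.6 and 17.6 CPM in KO2 cells and 4.15 and 3.58 CPM in WT cells, at a log2 fold change of -1.99 ± 0.13 (SE) (adjusted p = 1.90e-05). In Eda2r the KO3 libraries were near WT, and in Cdkn1a below it. Of all genes tested 9.71% were lower and 12.1% higher, the shares to set beside the counts of the lists that follow. Over the 18 tested p53 targets 4 fell and 2 rose, with a median of -0.03, so the list was divided. Without KO3 replicate 2 the counts were 2 and 1. The ribosome biogenesis targets of MYC had 3 lower and 1 higher of 22, with none lower without KO3 replicate 1 and 1 without KO3 replicate 2, and none of the 9 tested genes of the Myc and MAX network passed. Myc had 407 and 409 CPM in KO3 cells, against 529 and 471 CPM in KO1 cells, 440.5 and 466 CPM in KO2 cells and 499.6 and 522 CPM in WT cells, at a log2 fold change of -0.22 ± 0.09 (SE) (adjusted p = 0.103). The KO3 values of Myc lay below all others, but the difference did not pass the threshold. These are counts of the mouse gene, and whether they hold reads of the Myc transgene cannot be told from them.

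The ER stress genes under IRE1α itself differed little between the lines in culture. Of 40 tested XBP1s targets 6 were higher and 1 lower in KO3 cells, beside 12.1% and 9.71% of all genes tested. Their median log2 fold change was 0.12. Without either KO3 library 2 were higher, and with libraries summed per line 1 was higher. The medians of the list relative to WT were -1.09 in KO3 cells, -1.22 in KO1 cells and -1.16 in KO2 cells. Dnajb9, a co-chaperone that is a sensitive XBP1s target, had 11.03 and 9.02 CPM in KO3 cells, against 10.2 and 9.81 CPM in KO1 cells, 14.8 and 11.98 CPM in KO2 cells and 29.6 and 31.0 CPM in WT cells. KO3 lay within or just below the range of KO1 and KO2, all 3 lines were far below WT, and the log2 fold change of -0.21 ± 0.17 (SE) did not pass (adjusted p = 0.416). Xbp1 mRNA, counted without regard to splicing, had 99.4 and 90.8 CPM in KO3 cells, against 55.8 and 54.4 CPM in KO1 cells, 68.0 and 76.0 CPM in KO2 cells and 117 and 115 CPM in WT cells. KO3 was higher than KO1 and KO2 by a log2 fold change of 0.59 ± 0.13 (SE) (adjusted p = 0.00881) and lower than WT, and the call was lost without either KO3 library and with libraries summed per line. Pdia6, a disulfide isomerase, was at a log2 fold change of 0.61 ± 0.07 (SE) (adjusted p = 0.00031), and Srpr, the receptor of the signal recognition particle, at a log2 fold change of 0.35 ± 0.06 (SE) (adjusted p = 0.00398).

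Some ER chaperones were less reduced in KO3 cells. Of 12 tested ATF6 targets 6 were higher and 2 lower in KO3 cells than in KO1 and KO2 cells, with a median of 0.22. Calr, the chaperone calreticulin, had 1032 ± 30.4 CPM in KO3 cells (SD, n = 2), against 659.8 ± 67.6 CPM in KO1 and KO2 cells (SD, n = 4) and 1468 ± 2.45 CPM in WT cells (SD, n = 2), at a log2 fold change of 0.65 ± 0.10 (SE) (adjusted p = 0.00112). Pdia3, a disulfide isomerase, stood at a log2 fold change of 0.52 ± 0.07 (SE) (adjusted p = 0.00101), Pdia4 at a log2 fold change of 0.37 ± 0.06 (SE) (adjusted p = 0.00285), Hsp90b1 at a log2 fold change of 0.44 and Canx at a log2 fold change of 0.28. Hspa5, which encodes the chaperone BiP, had 608 and 618 CPM in KO3 cells, against 484 and 591 CPM in KO1 cells, 595 and 547 CPM in KO2 cells and 1446 and 1397 CPM in WT cells. It did not pass, at a log2 fold change of 0.15 ± 0.09 (SE) (adjusted p = 0.262), with all KO lines below WT. Herpud1 and Sel1l, which act in ER-associated degradation, were lower, at log2 fold changes of -0.45 and -0.36. Herpud1 and Sel1l therefore moved against the chaperones of the same list. Without KO3 replicate 1, 2 ATF6 targets were higher and none lower, and without KO3 replicate 2, 3 were higher and 1 lower. None of the 5 tested substrates of IRE1-dependent RNA decay passed.

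Epithelial genes set KO3 apart, and here KO3 in part exceeded WT. Of 5 tested keratins of simple epithelium 4 were higher in KO3 cells and none lower, against 2 higher with DESeq2, without either KO3 library or without KO1 replicate 2, and 1 with libraries summed per line. Krt8 had 134 and 158 CPM in KO3 cells, against 31.1 and 32.7 CPM in KO1 cells, 28.1 and 26.8 CPM in KO2 cells and 22.5 and 24.0 CPM in WT cells. Both KO3 libraries stood above all 6 others, with a log2 fold change of 2.31 ± 0.09 (SE) (adjusted p = 1.03e-06). Krt7, another simple keratin, had 102 and 104 CPM in KO3 cells, against 43.8 and 39.3 CPM in KO1 cells, 56.4 and 60.1 CPM in KO2 cells and 57.0 and 52.3 CPM in WT cells, at a log2 fold change of 1.06 ± 0.15 (SE) (adjusted p = 0.000799). Krt18, the partner of keratin 8, was low everywhere, at 0.672 ± 0.0633 CPM in KO3 cells (SD, n = 2), against 0.214 ± 0.0997 CPM in KO1 and KO2 cells (SD, n = 4) and 0.178 ± 0.0214 CPM in WT cells (SD, n = 2). Its call, at a log2 fold change of 1.69 ± 0.50 (SE) (adjusted p = 0.0357), was lost under 9 of 17 alternatives. Krt19 stood at a log2 fold change of 0.59 and did not pass.

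Keratins of basal and squamous epithelium went both ways. Krt6a, a keratin of activated and squamous cells, had 457 and 556 CPM in KO3 cells, against 58.2 and 69.7 CPM in KO1 cells, 122 and 118 CPM in KO2 cells and 136 and 134 CPM in WT cells. KO3 lay above every other library, at a log2 fold change of 2.47 ± 0.25 (SE) (adjusted p = 0.000156), although reads of Krt6a may be shared with the near copy Krt6b. Krt15, a basal keratin, had 7.93 and 6.79 CPM in KO3 cells, against 53.5 and 43.9 CPM in KO1 cells, 59.6 and 69.4 CPM in KO2 cells and 40.6 and 32.1 CPM in WT cells. KO3 lay below every other library, at a log2 fold change of -2.94 ± 0.19 (SE) (adjusted p = 1.90e-05). Krt4 rose by 1.26 on the log2 scale (adjusted p = 0.000347). Krt13 and Krt10, at log2 fold changes of -0.68 and 0.08, did not pass, and Krt5 and Krt14 were too low to test.

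Genes of epithelial adhesion and junctions were higher in KO3 cells in 11 of 17 tested and lower in none, with a median log2 fold change of 0.49. Ceacam1, a cell adhesion molecule, had 174 and 174 CPM in KO3 cells, against 39.9 and 36.8 CPM in KO1 cells, 49.0 and 49.1 CPM in KO2 cells and 128 and 134 CPM in WT cells. KO3 was highest and WT between, with a log2 fold change of 2.005 ± 0.11 (SE) (adjusted p = 7.03e-06). Crb3, which sets apical polarity, had 22.5 and 24.2 CPM in KO3 cells, against 6.94 and 7.65 CPM in KO1 cells, 7.80 and 8.96 CPM in KO2 cells and 11.2 and 10.9 CPM in WT cells, at a log2 fold change of 1.58 ± 0.11 (SE) (adjusted p = 2.80e-05). Cgn, the tight junction protein cingulin, had 189 and 209 CPM in KO3 cells, against 81.3 and 93.0 CPM in KO1 cells, 94.8 and 96.7 CPM in KO2 cells and 153 and 154 CPM in WT cells, at a log2 fold change of 1.13 ± 0.08 (SE) (adjusted p = 2.80e-05). In all 3 of these genes no library of KO1 or KO2 reached WT. Cldn4, a claudin, stood at a log2 fold change of 2.08, Prss8, a membrane protease, at a log2 fold change of 1.60, and Elf3, an epithelial transcription factor, at a log2 fold change of 1.08. The scaffolds Tjp1 and F11r did not pass, at log2 fold changes of 0.01 and 0.05. Relative to WT the medians of the list were 0.19 in KO3 cells, -0.60 in KO1 cells and -0.49 in KO2 cells. The count of higher members was 6 without KO3 replicate 1, 7 without KO3 replicate 2 and 5 with libraries summed per line. Of 14 tested mesenchymal genes 2 were higher and 2 lower, beside 12.1% and 9.71% of all genes tested. Vim, which encodes vimentin, had 197 and 220.3 CPM in KO3 cells, against 403 and 361 CPM in KO1 cells, 239 and 257 CPM in KO2 cells and 245 and 238 CPM in WT cells, and did not pass at a log2 fold change of -0.58 ± 0.19 (SE) (adjusted p = 0.0536). Zeb2, a repressor of epithelial genes, fell by 0.74 on the log2 scale (adjusted p = 0.000851), and Fn1, which encodes fibronectin, fell by 0.59 on the log2 scale (adjusted p = 0.00337).

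**Figure D3:**
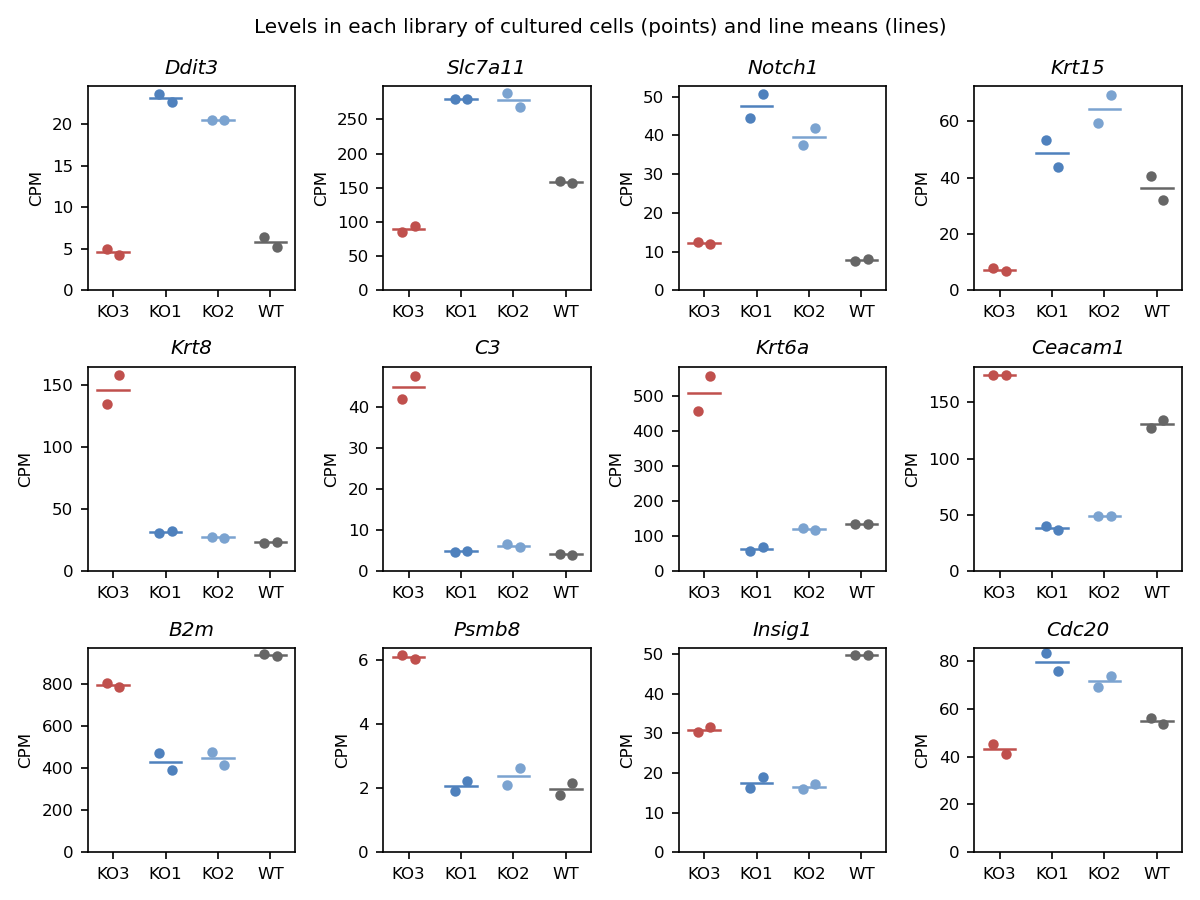
CPM of 12 genes in each library of cultured cells, with 1 panel per gene, points for the 2 libraries of a line and a line at their mean. KO3 stands near WT in Ddit3 and B2m, between the other KO lines and WT in Insig1, above all other lines in Krt8, C3, Krt6a, Ceacam1 and Psmb8, and below all in Slc7a11, Krt15 and Cdc20.

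Basement membrane genes and their integrins were higher in 11 of 17 tested and lower in none, with a median of 0.53. Col4a1 and Col4a2, the main collagen IV chains, lie side by side and were both strongly reduced in KO1 and KO2. Col4a1 had 5.65 and 6.32 CPM in KO3 cells, against 0.414 and 0.808 CPM in KO1 cells, 0.596 and 0.503 CPM in KO2 cells and 19.4 and 22.97 CPM in WT cells. KO3 lay between the other KO lines and WT, at a log2 fold change of 3.34 ± 0.25 (SE) (adjusted p = 3.02e-05). Col4a2 had 3.81 and 5.41 CPM in KO3 cells, against 0.725 and 0.654 CPM in KO1 cells, 0.812 and 0.856 CPM in KO2 cells and 15.8 and 17.1 CPM in WT cells, in the same order, at a log2 fold change of 2.61 ± 0.24 (SE) (adjusted p = 9.57e-05). Itgb1, the integrin β1 chain, stood at a log2 fold change of 0.53 ± 0.07 (SE) (adjusted p = 0.000711). Lamb3, a chain of the laminin under epithelia, had 7.44 and 8.16 CPM in KO3 cells, against 2.69 and 2.96 CPM in KO1 cells, 0.379 and 0.554 CPM in KO2 cells and 1.93 and 1.90 CPM in WT cells, at a log2 fold change of 2.20 ± 0.52 (SE) (adjusted p = 0.0136). The KO1 and KO2 values of Lamb3 stood apart, KO3 exceeded WT, and the call was lost under 4 of 17 alternatives, among them the removal of either KO3 library. Itgb6 and Itgb8, integrin chains that bind latent TGF-β, were at log2 fold changes of 1.44 and 2.58. The count of higher members was 8 without KO3 replicate 1, 6 without KO3 replicate 2 and 4 with libraries summed per line.

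Actin bundling and adhesion scaffold genes were higher in 11 of 20 tested and lower in 1, with a median of 0.30. Tns4, a focal adhesion protein of epithelial cells, had 56.7 and 59.5 CPM in KO3 cells, against 9.11 and 9.46 CPM in KO1 cells, 15.3 and 13.8 CPM in KO2 cells and 30.0 and 30.7 CPM in WT cells, at a log2 fold change of 2.30 ± 0.17 (SE) (adjusted p = 3.02e-05). KO3 lay above WT, and KO1 and KO2 below it. Pls3, an actin bundler, stood at a log2 fold change of 0.66 ± 0.08 (SE) (adjusted p = 0.000319), and Actn1, an actin crosslinker, at a log2 fold change of 0.42 ± 0.07 (SE) (adjusted p = 0.00174). The count of higher members was 6 without KO3 replicate 1 and 4 without KO3 replicate 2. Tns1 was the member that was lower, at a log2 fold change of -0.35.

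Several complement genes were higher in KO3 cells. C3, the central complement protein, had 42.1 and 47.7 CPM in KO3 cells, against 4.76 and 5.04 CPM in KO1 cells, 6.71 and 5.84 CPM in KO2 cells and 4.35 and 4.02 CPM in WT cells. Both KO3 libraries stood far above all 6 others, at a log2 fold change of 3.02 ± 0.12 (SE) (adjusted p = 1.03e-06). C1s1, a protease of the first complement component, had 8.11 and 9.85 CPM in KO3 cells, against 2.33 and 1.88 CPM in KO1 cells, 1.46 and 0.906 CPM in KO2 cells and 0.917 and 0.597 CPM in WT cells, at a log2 fold change of 2.45 ± 0.26 (SE) (adjusted p = 0.000192). Clu, a complement inhibitor and chaperone, had 149 and 158 CPM in KO3 cells, against 99.6 and 102 CPM in KO1 cells, 97.0 and 97.7 CPM in KO2 cells and 220.2 and 225 CPM in WT cells, at a log2 fold change of 0.64 ± 0.06 (SE) (adjusted p = 0.000146). C3 and C1s1 were above WT in KO3, whereas Clu was below WT in every KO line. With C1ra at a log2 fold change of 1.75, 4 of 8 tested members were higher and none lower, in each alternative as in the test reported.

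Of 20 tested genes of MHC class I presentation 11 were higher and none lower, with a median of 0.44. B2m, the light chain of MHC class I, had 808 and 786 CPM in KO3 cells, against 472 and 392 CPM in KO1 cells, 476 and 418 CPM in KO2 cells and 945 and 935 CPM in WT cells. KO3 lay below WT and above KO1 and KO2, at a log2 fold change of 0.87 ± 0.09 (SE) (adjusted p = 0.000188). Tapbp, which loads peptide on MHC class I, had 197 and 195 CPM in KO3 cells, against 108 and 109.8 CPM in KO1 cells, 128 and 119 CPM in KO2 cells and 201 and 192 CPM in WT cells, with KO3 at the level of WT and a log2 fold change of 0.76 ± 0.08 (SE) against KO1 and KO2 (adjusted p = 0.000168). Psmb8, an immunoproteasome subunit, had 6.14 and 6.002 CPM in KO3 cells, against 1.92 and 2.23 CPM in KO1 cells, 2.11 and 2.62 CPM in KO2 cells and 1.79 and 2.17 CPM in WT cells, and there KO3 stood above WT too, at a log2 fold change of 1.46 ± 0.18 (SE) (adjusted p = 0.000417). The heavy chains H2-K1 and H2-D1, which share sequence with other members of their family, were at log2 fold changes of 0.51 and 0.39. The transporter genes Tap1 and Tap2 did not pass, at log2 fold changes of -0.03 and 0.27. Pdia3 and Calr stand on this list and on that of ATF6. The medians relative to WT were 0.00 in KO3 cells, -0.41 in KO1 cells and -0.53 in KO2 cells. The count of higher members was 6 without KO3 replicate 1, 7 without KO3 replicate 2 and 6 with libraries summed per line. Cd274, which encodes PD-L1, had 1.30 and 1.29 CPM in KO3 cells, against 1.19 and 1.81 CPM in KO1 cells, 1.14 and 0.956 CPM in KO2 cells and 0.676 and 1.74 CPM in WT cells, at a log2 fold change of 0.02 ± 0.32 (SE) (adjusted p = 0.974).

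Type I interferon-stimulated genes did not move as 1 group. Of 28 tested 12 were higher and 3 lower, with a median of 0.40. Samd9l, an antiviral factor, had 17.3 and 18.99 CPM in KO3 cells, against 7.66 and 8.69 CPM in KO1 cells, 8.94 and 7.85 CPM in KO2 cells and 9.27 and 10.1 CPM in WT cells, at a log2 fold change of 1.14 ± 0.11 (SE) (adjusted p = 0.000117), and KO3 stood above every other library. Parp14 stood at a log2 fold change of 0.80 ± 0.10 (SE) (adjusted p = 0.000417), and Isg20, an exonuclease, at a log2 fold change of 0.56 ± 0.07 (SE) (adjusted p = 0.000579). Rsad2, Ifit3b and Ifit2 were lower, and Isg15 did not pass, at a log2 fold change of -0.20. Irf7, an interferon-induced transcription factor, had 0.672 and 0.745 CPM in KO3 cells, against 1.29 and 1.15 CPM in KO1 cells, 0.596 and 0.856 CPM in KO2 cells and 0.821 and 0.923 CPM in WT cells, and did not pass (adjusted p = 0.421). The counts were 8 higher and 1 lower without KO3 replicate 1, and 5 higher and none lower without KO3 replicate 2. Of 23 tested NF-κB targets 9 were higher and 1 lower. Tnfaip3, an inhibitor of NF-κB signalling, had 50.5 and 57.4 CPM in KO3 cells, against 24.8 and 26.0 CPM in KO1 cells, 30.2 and 28.4 CPM in KO2 cells and 50.6 and 51.1 CPM in WT cells, at a log2 fold change of 0.99 ± 0.10 (SE) (adjusted p = 0.00013). Icam1, an adhesion molecule for leukocytes, had 5.56 and 5.85 CPM in KO3 cells, against 2.07 and 1.92 CPM in KO1 cells, 1.68 and 1.66 CPM in KO2 cells and 2.37 and 2.28 CPM in WT cells, at a log2 fold change of 1.64 ± 0.18 (SE) (adjusted p = 0.000228). KO3 was near WT in Tnfaip3 and above it in Icam1. Of the NF-κB targets 5 were higher without KO3 replicate 1 and 3 without KO3 replicate 2.

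Many genes of cholesterol supply and glycolysis were higher in KO3 cells than in KO1 and KO2 cells. Of 23 tested cholesterol genes 10 were higher and none lower, with a median of 0.35. Insig1, which holds back sterol-regulated transcription, had 30.4 and 31.5 CPM in KO3 cells, against 16.2 and 18.96 CPM in KO1 cells, 15.9 and 17.2 CPM in KO2 cells and 49.8 and 49.8 CPM in WT cells, between the other KO lines and WT, at a log2 fold change of 0.87 ± 0.09 (SE) (adjusted p = 0.000202). Ebp, an isomerase of the pathway, stood at a log2 fold change of 0.74 ± 0.08 (SE) (adjusted p = 0.000209). Sqle, Lss, Mvk and Mvd did not pass. Relative to WT the medians were -0.47 in KO3 cells, -0.68 in KO1 cells and -0.69 in KO2 cells. The count of higher members was 7 without KO3 replicate 1, 5 without KO3 replicate 2 and 3 with libraries summed per line.

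Of 21 tested genes of hypoxia and glycolysis 13 were higher and 2 lower, with a median of 0.33. Ldha, lactate dehydrogenase A, was at a log2 fold change of 0.88 ± 0.09 (SE) (adjusted p = 0.000175). Pfkl, the liver form of phosphofructokinase, had 285 and 308 CPM in KO3 cells, against 166 and 191 CPM in KO1 cells, 169 and 179 CPM in KO2 cells and 327 and 309 CPM in WT cells, at a log2 fold change of 0.76 ± 0.08 (SE) (adjusted p = 0.000156), and KO3 lay just below WT. Gpi1, the enzyme before it in the pathway, stood at a log2 fold change of 0.57 ± 0.07 (SE) (adjusted p = 0.000466). The transcripts that were lower were Ero1l, an ER oxidase, and Vegfa, a vessel growth factor, at log2 fold changes of -0.46 and -0.30. The glucose transporter Slc2a1 and hexokinase Hk2 did not pass, at log2 fold changes of -0.04 and 0.00. The count of higher members was 6 without either KO3 library and 5 with libraries summed per line. Of 24 tested lysosome and autophagy genes 10 were higher and 3 lower, with Hexa, a lysosomal hexosaminidase, at a log2 fold change of 0.51 ± 0.06 (SE) and Sqstm1, the autophagy receptor p62, at a log2 fold change of -0.63 ± 0.09 (SE) (adjusted p = 0.000432 and 0.000764). Of 15 tested cytosolic chaperones 7 were higher and 1 lower, led by Hspa8, the constitutive HSC70, at a log2 fold change of 0.93 ± 0.09 (SE) (adjusted p = 0.000117). Without either KO3 library 3 lysosome and autophagy genes were higher, and 3 to 4 cytosolic chaperones.

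Receptors and ligands of growth and cell fate differed in both directions. Of 12 tested growth factor receptors and ligands 8 were higher and none lower. Btc, the EGF receptor ligand betacellulin, had 2.20 and 2.71 CPM in KO3 cells, against 0.0518 and 0.115 CPM in KO1 cells, 0.325 and 0 CPM in KO2 cells and 0.628 and 0.543 CPM in WT cells, at a log2 fold change of 4.30 ± 0.55 (SE) (adjusted p = 0.000513). It was above WT in KO3, at a level of few counts elsewhere. Fgfr2 had 107 and 104 CPM in KO3 cells, against 68.6 and 77.0 CPM in KO1 cells, 62.1 and 58.3 CPM in KO2 cells and 102 and 96.7 CPM in WT cells, at a log2 fold change of 0.68 ± 0.10 (SE) (adjusted p = 0.00112), with KO3 next to WT. Without either KO3 library 3 members were higher, and without KO1 replicate 1, 5. Notch1, a receptor of cell fate decisions, had 12.6 and 11.8 CPM in KO3 cells, against 44.4 and 50.6 CPM in KO1 cells, 37.6 and 41.8 CPM in KO2 cells and 7.68 and 7.98 CPM in WT cells. KO3 lay well below KO1 and KO2 and above WT, at a log2 fold change of -1.83 ± 0.13 (SE) (adjusted p = 2.24e-05). Its relative Notch3 was higher, at a log2 fold change of 1.47 (adjusted p = 0.0369). Of 10 tested genes of the Notch pathway 3 were higher and 1 lower, and none was higher without either KO3 library or with libraries summed per line. Without either KO1 library 1 was higher. Ly6a, a surface protein of prostate progenitors, was higher, at a log2 fold change of 0.99 ± 0.09 (SE) (adjusted p = 7.97e-05), and Steap1, a metalloreductase of prostate cells, was lower at a log2 fold change of -0.63 ± 0.07 (SE) (adjusted p = 0.00031). In KO3 both genes were near WT.

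A few genes were read in KO3 and in almost no library of the other lines, or the reverse. Igsf3, an immunoglobulin superfamily protein (chromosome 3, 101377083 to 101463059), had 524 counts over the KO3 libraries and 0 over those of KO1 and KO2. That is at least 295-fold higher against a floor of 3 counts over the group, and WT cells had 8.35 and 9.45 CPM. Aim2, a sensor of cytosolic DNA, had 151 counts in KO3 and 0 in KO1 and KO2, at least 85.0-fold higher, and at most 0.0543 CPM in WT. Sh2d4a, an SH2 domain adaptor, had 276 counts in KO3, 3 in KO1 and KO2 and 0 CPM in WT. So Igsf3 was present in WT, whereas Aim2 and Sh2d4a were near 0 in every line but KO3. In tumours, which also hold cells of the host, Igsf3 had 2.86, 1.31 and 2.26 CPM in KO3 tumours, against 5.99, 6.42 and 5.11 CPM in KO1 tumours, 2.12, 1.82 and 1.66 CPM in KO2 tumours and 3.77, 2.87, 3.03 and 4.003 CPM in WT tumours. The tumour groups overlapped, and the difference did not pass (adjusted p = 0.525). In the other direction Slc9a7, a sodium/proton exchanger of the Golgi, had 2 counts in KO3 and 279 in KO1 and KO2. Ncald, a calcium sensor, had 1 count in KO3 and 251 in KO1 and KO2, and Cacnb4, a calcium channel subunit, had 1 in KO3 and 253 in KO1 and KO2. Slc9a7 and Cacnb4 averaged 6.21 and 4.05 CPM in WT. The histone gene Hist2h2aa2 had 0 counts in KO3 and 339 in KO1 and KO2, but it has a near-identical neighbour with which reads can be split. The annotated snRNA genes Gm26244, Gm26444 and Gm23804 also met this condition, but in each of them 1 library held all the counts of the KO lines: 163 in KO3 replicate 1 for Gm26244, 130 in KO3 replicate 2 for Gm26444 and 231 in KO2 replicate 1 for Gm23804. In the other genes named here each KO3 library, or each library of KO1 and KO2, held counts.

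Among the other largest differences, Ugt1a6a, a glucuronidating enzyme, had 0.628 and 0.353 CPM in KO3 cells, against 8.02 and 7.92 CPM in KO1 cells, 14.7 and 13.7 CPM in KO2 cells and 7.05 and 7.33 CPM in WT cells. KO3 was the low line, at a log2 fold change of -4.49 ± 0.41 (SE) (adjusted p = 9.10e-05), and genes of that locus share exons, so the reads may belong to another of them. Ddr2, a collagen receptor, and Sord, sorbitol dehydrogenase, were likewise lower in KO3 than in the other lines and WT. Ddr2 had 1.10 ± 0.103 CPM in KO3 cells (SD, n = 2), against 5.96 ± 1.93 CPM in KO1 and KO2 cells (SD, n = 4) and 5.71 ± 0.293 CPM in WT cells (SD, n = 2). Sord had 1.95 ± 0.349 CPM in KO3 cells (SD, n = 2), against 10.1 ± 4.03 CPM in KO1 and KO2 cells (SD, n = 4) and 7.39 ± 1.09 CPM in WT cells (SD, n = 2). Hhipl1, Mmp28 and Sspo were instead high in KO1 and KO2, with WT near KO3. Hhipl1 had 1.37 ± 0.670 CPM in KO3 cells (SD, n = 2), against 10.7 ± 2.55 CPM in KO1 and KO2 cells (SD, n = 4) and 1.30 ± 0.469 CPM in WT cells (SD, n = 2). Mmp28, a matrix metalloprotease, had 1.06 ± 0.107 CPM in KO3 cells (SD, n = 2), against 6.13 ± 1.19 CPM in KO1 and KO2 cells (SD, n = 4) and 0.911 ± 0.214 CPM in WT cells (SD, n = 2). Gja1, which encodes the gap junction protein connexin 43, was at a log2 fold change of -2.19 ± 0.27 (SE) (adjusted p = 0.000429). On the higher side Tmc4, a membrane channel-like protein, had 10.4 and 9.81 CPM in KO3 cells, against 0.828 and 0.846 CPM in KO1 cells, 1.90 and 2.57 CPM in KO2 cells and 7.10 and 7.28 CPM in WT cells, at a log2 fold change of 2.75 ± 0.34 (SE) (adjusted p = 0.000416), and Pard6g, a polarity protein, was at a log2 fold change of 2.26 ± 0.36 (SE) (adjusted p = 0.00192). The mitochondrial mt-Nd3 had 17.3 and 51.3 CPM in KO3 cells, against 4.76 and 7.19 CPM in KO1 cells, 11.9 and 4.73 CPM in KO2 cells and 8.30 and 17.7 CPM in WT cells. Its 2 KO3 values were far apart, and the call at a log2 fold change of 2.28 ± 0.41 (SE) (adjusted p = 0.00324) was lost without KO3 replicate 2.

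The share of genes higher in KO3 cells ran from 5.85% on chromosome 19 to 20.3% on chromosome 9, with 18.8% on chromosome 7, and the share of genes lower ran from 5.79% on chromosome 14 to 14.5% on chromosome 19. Median log2 fold changes per chromosome ran from -0.11 on chromosome 19 to 0.10 on chromosome 7. Relative to WT, chromosome 3 had medians of -0.29 in KO3 cells, -0.30 in KO1 cells and -0.30 in KO2 cells. Chromosome 16 had medians of -0.17 in KO3 cells, -0.14 in KO1 cells and -0.16 in KO2 cells. These shifts were common to the lines and not part of the difference between them.

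In tumours of the same lines far fewer genes separated KO3 from KO1 and KO2. Of 14223 genes tested 233, 1.64%, passed, with 144 higher in KO3 tumours (1.01%) and 89 lower (0.626%). In bulk tumours fewer cells of a type and less RNA per cell cannot be told apart. Of the 1456 genes higher in KO3 cells 1420 were tested in tumours, where 40 were higher and 10 lower. Of the 1173 genes lower in KO3 cells 1144 were tested in tumours, where 4 were higher and 5 lower. Over all genes tested the 3 KO3 tumours lay above the 6 others in 4.31% and below them in 3.85%. The sign was the same in cells and tumours for 59.2% of the first set and 57.3% of the second, against 51.1% of the genes not called in cells. Among genes called in cells with a change of 2-fold or more, it was the same for 44.4% of those higher and 64.5% of those lower.

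Integrated stress response genes did not carry over. Of 37 tested in tumours 1 was higher, none was lower and the median was 0.11, beside -0.85 in cells. The 1 gene was Nupr1, with 75.2, 78.8 and 69.9 CPM in KO3 tumours, against 26.7, 26.6 and 21.8 CPM in KO1 tumours, 35.4, 39.8 and 26.3 CPM in KO2 tumours and 173, 120.4, 71.1 and 35.8 CPM in WT tumours. KO3 exceeded all KO1 and KO2 tumours, at a log2 fold change of 1.34 ± 0.16 (SE) (adjusted p = 0.00294), whereas in cells it was at a log2 fold change of -1.81 ± 0.13 (SE). Trib3 had 8.18, 2.71 and 1.79 CPM in KO3 tumours, against 0.840, 1.88 and 2.45 CPM in KO1 tumours, 3.60, 6.96 and 2.32 CPM in KO2 tumours and 7.39, 6.63, 5.93 and 5.04 CPM in WT tumours, and did not pass (adjusted p = 0.794). The groups overlapped widely in Trib3. Krt8 and C3 did not pass in tumours either, at log2 fold changes of -0.12 and 0.14 (adjusted p = 0.944 and 0.969). Cell cycle genes had a median of -0.47 in tumours, near that in cells, but none of 28 passed.

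Genes of the XBP1s list had the opposite pattern. They separated KO3 from the other lines in tumours, with 30 of 41 higher and none lower and a median of 0.77, and hardly in cells, where the median was 0.12. Dnajb9 had 37.4, 39.9 and 35.3 CPM in KO3 tumours, against 15.8, 11.9 and 10.7 CPM in KO1 tumours, 15.2, 11.2 and 13.9 CPM in KO2 tumours and 38.1, 44.8, 54.4 and 56.0 CPM in WT tumours. KO3 tumours overlapped the lower WT values, at a log2 fold change of 1.52 ± 0.13 (SE) against KO1 and KO2 tumours (adjusted p = 0.000305). Whether the difference between lines itself differed between cells and tumours was not tested.

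Genes that were higher in KO3 in both settings included Pdia6, with 844, 845 and 783 CPM in KO3 tumours, against 412, 434 and 461 CPM in KO1 tumours, 497, 453 and 519.7 CPM in KO2 tumours and 893, 829, 870.5 and 935 CPM in WT tumours. Its log2 fold change was 0.84 ± 0.10 (SE) in tumours (adjusted p = 0.0027). Apof, an apolipoprotein, stood at log2 fold changes of 1.47 in cells and 1.01 in tumours, Kcne3, a potassium channel subunit, at log2 fold changes of 0.98 and 1.23, and Rab3d, a GTPase of secretory granules, at log2 fold changes of 0.86 and 0.79. Calca, the calcitonin gene, was lower in both, with 1.02, 0.513 and 0.189 CPM in KO3 tumours, against 5.94, 5.20 and 4.51 CPM in KO1 tumours, 13.7, 10.4 and 14.8 CPM in KO2 tumours and 10.6, 2.79, 7.81 and 7.53 CPM in WT tumours. No KO3 tumour reached the lowest of the others. The tumour calls of Apof, Kcne3, Rab3d and Calca were lost under 11, 5, 3 and 4 of 20 alternatives. Each of these calls was lost without KO3 replicate 2 and without KO3 replicate 3. Acta1 and Tnnt3, muscle genes, were higher in KO3 cells, at log2 fold changes of 1.85 and 2.26, and lower in KO3 tumours, at log2 fold changes of -6.71 and -7.16. In the tumours 7 of 12 skeletal muscle markers were lower in KO3, and Acta1 had 2.05, 0.373 and 0.472 CPM in KO3 tumours, against 72.7, 222 and 124 CPM in KO1 tumours, 4.70, 179.9 and 24.3 CPM in KO2 tumours and 807, 0.310, 19.1 and 0.480 CPM in WT tumours. The tumour calls of Acta1 and Tnnt3 were lost under 10 and 12 of 20 alternatives. The muscle signal ranged widely among WT and KO tumours. Summed muscle markers in cells were 4.21 to 5.96 CPM in KO3, 1.54 to 2.22 CPM in KO1 and KO2 and 4.35 to 5.32 CPM in WT, mostly Acta1, with Myh4 at 0 and Ckm at or near 0.

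**Figure D4:**
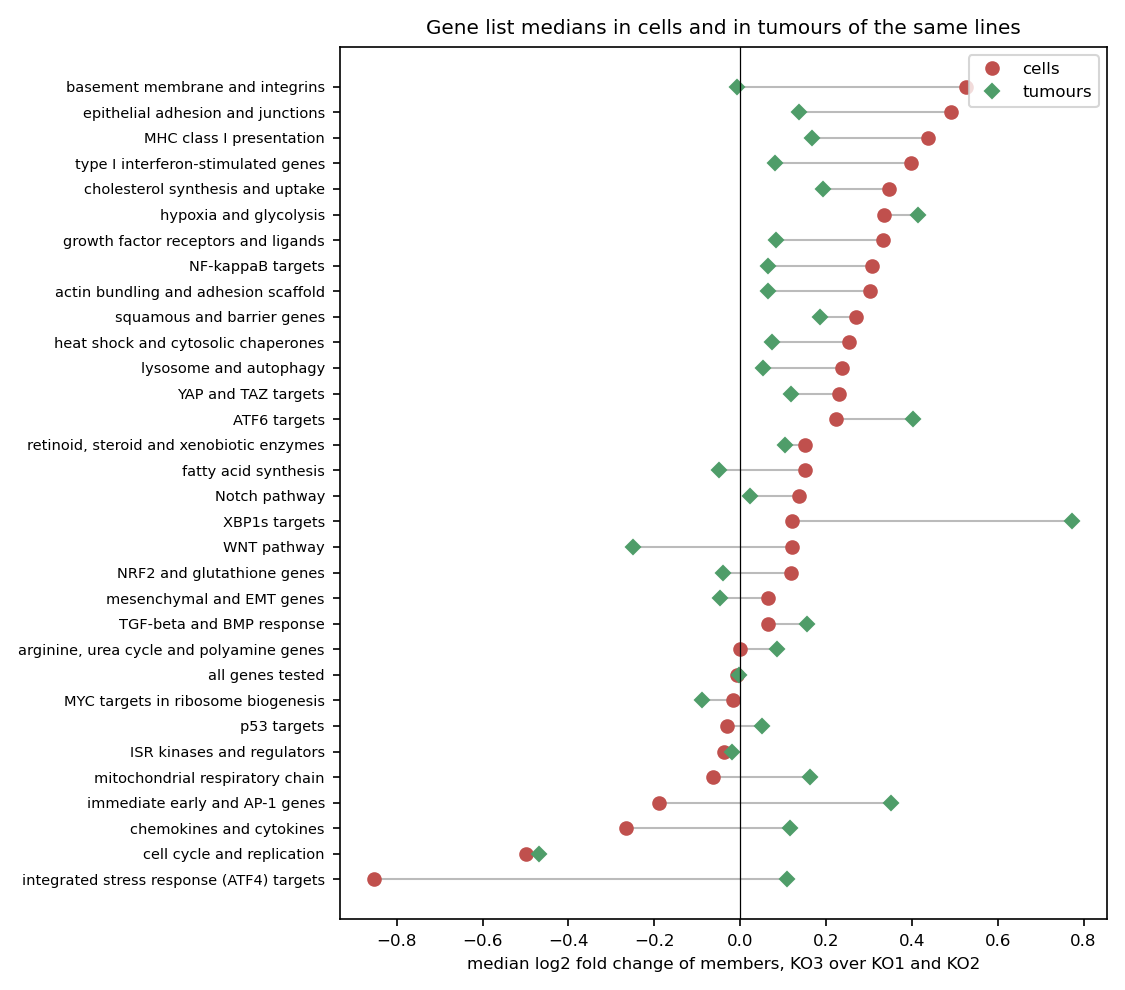
Median log2 fold change of KO3 over KO1 and KO2 in the gene lists shown, each with at least 10 members tested in both sets. Values in cells (circles) and in tumours of the same lines (diamonds) are joined by a line. Not every list that met this condition is shown. Integrated stress response genes move to 0.11 in tumours, beside -0.85 in cells, XBP1s targets stand at 0.77 in tumours and 0.12 in cells, and skeletal muscle markers are not shown because fewer than 10 were tested in cells.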

How the data were processed

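RNA was sequenced from cultured Myc-CaP cells and tumours as stranded libraries read from both ends for 50 bp, per the labels' protocols. What the authors gave as deposited tables are estimated counts per gene for 45706 genes, in an unscaled table and in another scaled by length. Trim Galore 0.6.7, STAR, Salmon 1.5.2 and GRCm38 were used, per the submitters' processing notes, with settings not given in the sources used here. A position in GENCODE M21 was found for 45143 gene IDs.

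Unscaled estimated counts were rounded to integers. After filterByExpr and TMM scaling, genes were tested with edgeR's quasi-likelihood test, version 4.0.16 (R 4.3.3), KO3 against KO1 and KO2, with Benjamini-Hochberg adjustment over all genes tested and a threshold of 0.05. Every adjusted p is from this test. Cells and tumours were fitted separately. Levels are CPM with TMM scaling over the 8 cell or 13 tumour libraries, and differences from WT are in log2(CPM + 0.5). Means ± SD of KO1 and KO2 run over the libraries of both lines. For a count of 0 the floor was 3 counts, which covers counting error only. Gene-level values are not per length, so they are not compared between genes. Replicates differed by more than sampling noise (chi-square per degree of freedom of at least 7.98). No column was left out.

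The comparison, the 45 gene lists and the rules were chosen with earlier results of these data known. Genes named were a fixed set of stress, epithelial and immune genes, the 10 largest rises and falls past the threshold at a mean log2 CPM of 2 or more without overlap of groups, the 3 called members with the smallest p of each list with 5 or more tested and 2 or more called, up to 5 genes per side with 3 counts or fewer on 1 side and 1 CPM or more on the other, and up to 5 genes per pair of directions called in both cells and tumours. Other list members were named after their values were seen. Some genes and lists that met these rules are not reported here. Alternatives were DESeq2 1.42.0, RLE scaling, the table scaled by length, no filter, libraries summed per line, the lines as 3 groups, voom of limma 3.58.1 with a random line effect, a replicate block, KO1 or KO2 alone, all libraries of a set in the fit, and leaving out each library. The steps were tested on simulated data. Promoters came from RefSeq. Figures were drawn with matplotlib 3.10.9.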

Additional observations from a re-analysis of the deposited data

Results flagged for a closer look

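Levels of 149 genes in the 4 KO1 and KO2 cell libraries were examined, and of 51 genes in the 6 KO1 and KO2 tumours. A single library far from the rest was looked for. The cut-off is one that about 1 in 20 groups drawn from a single normal distribution pass. The groups here join libraries of KO1 and KO2, and some levels lay near 0, so that rate need not hold. In cells the cut-off was met by Gsta4, a glutathione transferase, at 10.7 CPM in KO2 replicate 2 against 14.5 to 15.1 CPM in the others. Sh2d4a was read in KO2 replicate 1, at 0.162 CPM, and at 0 in the others. In tumours Ddr2, the collagen receptor, reached 22.1 CPM in KO1 replicate 1 against 4.64 to 9.47 CPM. Hspa5, the chaperone BiP, reached 1742 CPM in KO2 replicate 2 against 1087 to 1323 CPM. Krt15, the basal keratin, reached 8.58 CPM in KO1 replicate 2 against 1.12 to 3.74 CPM.

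Of 145 genes named by rule and tested in both sets, 10 changed sides. In these, every KO3 library lay on one side of KO1 and KO2 in cells and on the other side in tumours. The naming rules took in genes called in opposite directions in cells and tumours. The count of 10 therefore follows largely from that selection and is not a frequency. The difference between both settings was not tested. Over all genes 10 were called higher in KO3 cells and lower in KO3 tumours, and 4 the other way round. Among the 145 genes, those higher in KO3 cells and lower in KO3 tumours were Acta1, Tnnt3, Gm2a, Gpld1, Cgnl1 and Gsta4. Their log2 fold changes in tumours and in cells were -6.71 and 1.85 for Acta1, -7.16 and 2.26 for Tnnt3, and -0.70 and 1.55 for Gm2a, the activator of ganglioside breakdown. Gpld1, a phospholipase that cleaves GPI anchors, stood at -0.81 and 1.80, Cgnl1, a relative of cingulin, at -0.89 and 0.71, and Gsta4 at -0.46 and 0.74. In tumours Gsta4 did not pass (adjusted p = 0.168, edgeR). Those lower in KO3 cells and higher in KO3 tumours were Nupr1, Hid1, B4galnt2 and Nbas. Nupr1 stood at 1.34 in tumours and -1.81 in cells, and Hid1, which acts in secretory granules, at 1.45 and -0.35. B4galnt2, a glycosyltransferase, was at 1.79 and -3.13, and Nbas, a tether of vesicles at the ER, at 0.49 and -0.33. The tumour calls were lost under 10 of 20 alternatives for Acta1 and Nbas, 12 for Tnnt3, 11 for Gm2a and 8 for B4galnt2. The cell calls of Hid1, B4galnt2 and Nbas were lost without either KO3 library and with libraries summed per line, and that of Gsta4 without KO3 replicate 2 and with libraries summed per line.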

How the results depend on the processing

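In cells the count of 2629 genes became 510 with libraries summed per line (2867 at an unadjusted p under 0.05), and leaving out 1 library gave 911 to 2864, lowest without KO3 replicate 2 and 1006 without KO3 replicate 1, when KO3 is 1 library assumed to vary like the others. The other alternatives gave 1770 with the length-scaled table to 3564 with the lines as 3 groups. In tumours the count of 233 became 715 with DESeq2 (336 higher, 379 lower), 480 with the lines as 3 groups, 55 with voom and the line as a random block, 592 against KO1 alone and 155 against KO2 alone. With libraries summed per line edgeR called 0, with 622 at an unadjusted p under 0.05. Leaving out 1 tumour gave 47 to 237, with 47 without KO3 replicate 3, 50 without KO3 replicate 2, 115 without KO1 replicate 2 and 141 without KO1 replicate 3. The cause of these changes was not tested. Alternatives were run for 149 genes in cells and 51 in tumours, and none of these that passed the threshold changed sign. Other genes named in the text were not run under them.

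With the replicate block, the replicate number as a block, 2248 genes were called in cells and 71 in tumours. Same-numbered libraries did not all deviate together. The correlation of their deviations was 0.39 for KO3 and KO1 cells, -0.02 for KO3 and KO2 cells and -0.09 for KO1 and KO2 cells. In tumours it ran from -0.50 to 0.26. With 2 cell libraries per line each pair of lines gives 1 value. Whether same-numbered libraries were handled together cannot be told from these values.

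Depth limits genes of few counts. A count of 0 allows up to 0.120 to 0.166 CPM in a cell library, and Krt18, Btc and Aldh1a3 lie near or not far above it in KO1 and KO2. Since KO3 is 1 line, features of the line and of its edit cannot be told apart.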

Other observations

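Some members of several smaller groups differed between KO3 and the other lines, while most members of each group did not pass. Log2 fold changes were above 0 in 15 of 16 tested YAP and TAZ targets and in 11 of 14 fatty acid synthesis genes. The same held for 16 of 19 enzymes of retinoid, steroid and xenobiotic metabolism, against 5904 of all 12082 genes tested. Of all genes tested in cells 21.8% were called, 12.1% higher and 9.71% lower. Called shares did not exceed 21.8% in fatty acid synthesis, the mitochondrial respiratory chain and enzymes of retinoid, steroid and xenobiotic metabolism. Of 23 tested NRF2 and glutathione genes 6 were higher and 4 lower, with a median log2 fold change of 0.12. Hmox1, heme oxygenase 1, had 27.1 and 24.5 CPM in KO3 cells, against 39.7 and 40.7 CPM in KO1 cells, 39.5 and 37.2 CPM in KO2 cells and 23.4 and 24.3 CPM in WT cells, at a log2 fold change of -0.60 ± 0.08 (SE) (adjusted p = 0.000792, edgeR), with KO3 near WT, whereas Gsta4, a glutathione transferase, was higher at a log2 fold change of 0.74 ± 0.13 (SE) (adjusted p = 0.00332). Without KO3 replicate 1 the count of higher members was 1, and without KO3 replicate 2 it was 0. Of 21 tested immediate early and AP-1 genes 3 were higher and 4 lower, with 1 higher without either KO3 library. Fos had 30.9 and 38.3 CPM in KO3 cells, against 9.73 and 11.6 CPM in KO1 cells, 11.9 and 14.0 CPM in KO2 cells and 25.0 and 23.8 CPM in WT cells, at a log2 fold change of 1.56 ± 0.14 (SE) (adjusted p = 6.47e-05), and its relative Fosl1 had 22.7 and 22.6 CPM in KO3 cells, against 38.6 and 41.9 CPM in KO1 cells, 42.1 and 47.4 CPM in KO2 cells and 25.0 and 25.2 CPM in WT cells, at a log2 fold change of -0.90 ± 0.10 (SE) (adjusted p = 0.000222). The 2 AP-1 genes thus went in opposite directions, Fos above WT and Fosl1 just below it.

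In the TGF-β and BMP list 4 of 13 were higher and 2 lower, with 2 higher without KO3 replicate 2 and 1 lower without KO3 replicate 1. Tgfb3, a ligand, had 103 and 104 CPM in KO3 cells, against 62.1 and 66.4 CPM in KO1 cells, 69.3 and 62.1 CPM in KO2 cells and 122 and 131 CPM in WT cells, at a log2 fold change of 0.68 ± 0.07 (SE) (adjusted p = 0.000146), and Id1, a BMP target, had 14.3 and 13.9 CPM in KO3 cells, against 24.8 and 22.7 CPM in KO1 cells, 25.3 and 22.3 CPM in KO2 cells and 12.7 and 14.1 CPM in WT cells, at a log2 fold change of -0.75 ± 0.09 (SE) (adjusted p = 0.000481). KO3 was below WT in Tgfb3 and overlapped WT in Id1. Of 14 tested chemokines and cytokines 3 were higher and 2 lower, with none lower without either KO3 library, KO1 replicate 2 or KO2 replicate 1. Tnfsf10, the death ligand TRAIL, had 12.5 and 12.4 CPM in KO3 cells, against 3.002 and 2.38 CPM in KO1 cells, 4.01 and 2.21 CPM in KO2 cells and 12.5 and 11.9 CPM in WT cells, at a log2 fold change of 2.12 ± 0.20 (SE) (adjusted p = 9.57e-05), and KO3 stood at the level of WT. Cx3cl1, the chemokine fractalkine, had 9.59 and 9.38 CPM in KO3 cells, against 5.80 and 5.31 CPM in KO1 cells, 3.52 and 3.57 CPM in KO2 cells and 6.95 and 7.33 CPM in WT cells, at a log2 fold change of 1.06 ± 0.20 (SE) (adjusted p = 0.00468), with KO3 above WT. Of 14 tested fatty acid synthesis genes 3 were higher and none lower (1 higher without KO3 replicate 2), with Fasn, fatty acid synthase, at a log2 fold change of 0.44 ± 0.06 (SE) (adjusted p = 0.00111). Aldh1a3, which makes retinoic acid, had 2.91 and 3.33 CPM in KO3 cells, against 0.828 and 1.23 CPM in KO1 cells, 0.812 and 1.16 CPM in KO2 cells and 1.79 and 2.06 CPM in WT cells, at a log2 fold change of 1.62 ± 0.25 (SE) (adjusted p = 0.00159), and KO3 was above WT. Mgp, a matrix protein that binds calcium, was named after its values were seen: it had 125 and 124 CPM in KO3 cells, against 36.0 and 34.5 CPM in KO1 cells, 32.5 and 36.6 CPM in KO2 cells and 154 and 129 CPM in WT cells, at a log2 fold change of 1.84 ± 0.07 (SE) (adjusted p = 1.03e-06), with KO3 near WT. The mitochondrial respiratory chain had 1 higher and 2 lower of 22 tested, with none lower without either KO3 library. Of 16 tested YAP and TAZ targets 4 were higher and 1 lower, with 1 higher without either KO3 library. Of 10 tested genes of the WNT pathway 3 were higher and 1 lower, with 1 higher without either KO3 library. Squamous and barrier genes had 3 higher and 1 lower of 10, and enzymes of retinoid, steroid and xenobiotic metabolism 3 higher and 1 lower of 19.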
